A study of Homo sapiens with 20 samples.

Results

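MM1.S cells, an established human multiple myeloma line of plasma cell type, held a set of 153 genes whose newly made RNA was higher under the CBP/p300 degrader dCBP-30 than under DMSO at both 6 and 24 h. The genes were selected on the measured values themselves. Reads with a T>C conversion were counted on the 3′ UTR transcript of each gene with the most reads, scaled to the total of reads counted on genes as reads per 1000000 (RPM) and averaged over 3 libraries. A gene was taken when the log2 ratio of dCBP-30 over DMSO, with 0.5 RPM added to both means, was 1 or more at both times and its mean under dCBP-30 was 1.5 RPM or more at both. Of 19593 genes in the files, 13801 had a T>C read in a labelled library and 156 met these limits. MAP2, BMPR2 and AASS were left out by name, which leaves the 153 genes described here. T>C and total reads at 6 and 24 h come from the contrasts that chose the genes and are given as a description with no test. The 2 h libraries had no part in the choice, and only they were tested.

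The cells, wild type by their label, received 10 nM dCBP-30 or the vehicle DMSO for 2, 6 or 24 h, with 3 libraries in each of the 6 groups and DMSO libraries of its own at each time. All 18 libraries were labelled with 4-thiouridine (4sU) for the last 1 h before harvest, and 2 further libraries had no 4sU. After alkylation, 4sU pairs so that the sequencer reports C where the gene has T, and T>C reads therefore serve as a count of RNA synthesised while the label was present. The libraries without 4sU also held T>C reads (0.794% and 0.809% of reads), so a part of the T>C reads is background. All cells came from 1 line, and nothing in the sources used here says that the 3 replicates were separate cultures, so the p-values measure the spread between these libraries.

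Libraries held between 12439665 and 18727385 reads on genes. T>C reads made up between 4.712% and 6.865% of reads under dCBP-30, between 5.995% and 8.617% under DMSO, and 0.794% and 0.809% without 4sU. Plasma cell genes were present under DMSO, with SDC1 at 1237 and XBP1 at 1233 RPM of total reads at 2 h, while the myeloid gene LYZ was at 0 in all DMSO groups. The mRNA of the targets is no check of a protein degrader, and the total reads of EP300 averaged 740 RPM under dCBP-30 and 145 RPM under DMSO at 24 h. Scaling by TMM factors, which here centre the bulk of genes in total reads, shifted the log2 ratio of every gene by -0.104 at 2 h, -0.317 at 6 h and -0.523 at 24 h. With these factors 42 of the 153 genes met the same limits. Most of the set thus lacked that margin relative to the bulk of genes in total reads. In T>C reads the median log2 ratio over all genes tested was 0.034 at 6 h and -0.139 at 24 h. Scaled by each library's own T>C reads, 452 genes met the limits, 152 of them members.

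CBP and p300 are paralogous lysine acetyltransferases that work as coactivators: transcription factors bring them to enhancers and promoters, where they acetylate histones and aid the recruitment of RNA polymerase II. In myeloma cells they maintain the expression of plasma cell regulators such as IRF4. HEXIM1 holds the kinase P-TEFb in an inactive complex with 7SK RNA, and its own transcription is a well-known readout of P-TEFb release. MXD1 and MXD4 pair with MAX and occupy the E-boxes that MYC-MAX dimers bind, acting there as repressors.

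The level of new RNA in the set was unequal. H3-3B, one of the genes for the replication-independent histone variant H3.3, carried the most, with 225, 209 and 260 RPM of T>C reads in the dCBP-30 libraries of 24 h and 96.6, 117 and 124 RPM in the DMSO libraries. PNRC1, a nuclear receptor coregulator, came next at 79.2 ± 14.2 RPM under dCBP-30 and 26.7 ± 3.91 RPM under DMSO (SD, n = 3). HEXIM1 was the third, at 36.2 ± 3.92 and 7.18 ± 1.23 RPM. All the other members lay at 29.3 RPM or below, led by TCAF1 (a TRP channel associated factor), RGP1 (a subunit of a RAB6 exchange factor), CREBRF, MXD4, ZSCAN29, ORAI3 (a calcium channel subunit) and WBP2 (a YAP coactivator). The median member had 4.993 RPM under dCBP-30 and 1.478 RPM under DMSO at 24 h, and 66 members were under 3 RPM under dCBP-30 at 6 or 24 h. Summed over the set, T>C reads amounted to between 567.1 and 608.6 RPM in the dCBP-30 libraries of 2 h, between 912.0 and 991.1 RPM at 6 h and between 1253.8 and 1357.0 RPM at 24 h. The DMSO sums ranged from 355.0 to 371.5, from 326.8 to 356.4 and from 436.0 to 456.6 RPM at the same times. Without 4sU the highest member was H3-3B at 3.565 RPM and the median member was at 0.063 RPM. In some members this background was near the DMSO level. ERCC1 had 2.34 and 2.02 RPM without 4sU, and DMSO means of 1.52 RPM at 6 h and 2.64 RPM at 24 h. RTN4IP1 had 0.643 and 0.875 RPM without 4sU, and 0.451, 0.729 and 0.121 RPM in the DMSO libraries of 6 h. With the background subtracted 133 genes met the limits, 128 of them members.

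Over the 153 members, the median log2 ratio of T>C reads came to 0.62, 1.34 and 1.41 at 2, 6 and 24 h, beside 0.12, 0.03 and -0.14 over all genes tested. The 6 and 24 h values are fixed by the choice of genes. Individual ratios ran from -0.71 to 2.14 at 2 h, from 1.00 to 2.34 at 6 h and from 1.01 to 2.98 at 24 h. At 2 h 85 members had a log2 ratio of 0.5 or more, 31 of them 1 or more, while 66 lay between -0.5 and 0.5 and 2 at -0.5 or below. Every dCBP-30 library lay above every DMSO library for 141 members at 6 h and 139 at 24 h, where 15.7% and 15.4% of all genes tested did. At 2 h this held for 57 members, with 14.9% of all genes tested. Just inside the limit of 1 stood ZSCAN26 (1.003 at 6 h), ACO1 (1.005 at 6 h), CCDC136 (1.014 at 24 h) and ZNF776 (1.017 at 24 h). AKIP1, DVL3, GLMP and EAPP fell just outside, their lower ratio being 0.995, 0.995, 0.994 and 0.992.

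**Figure D1:**
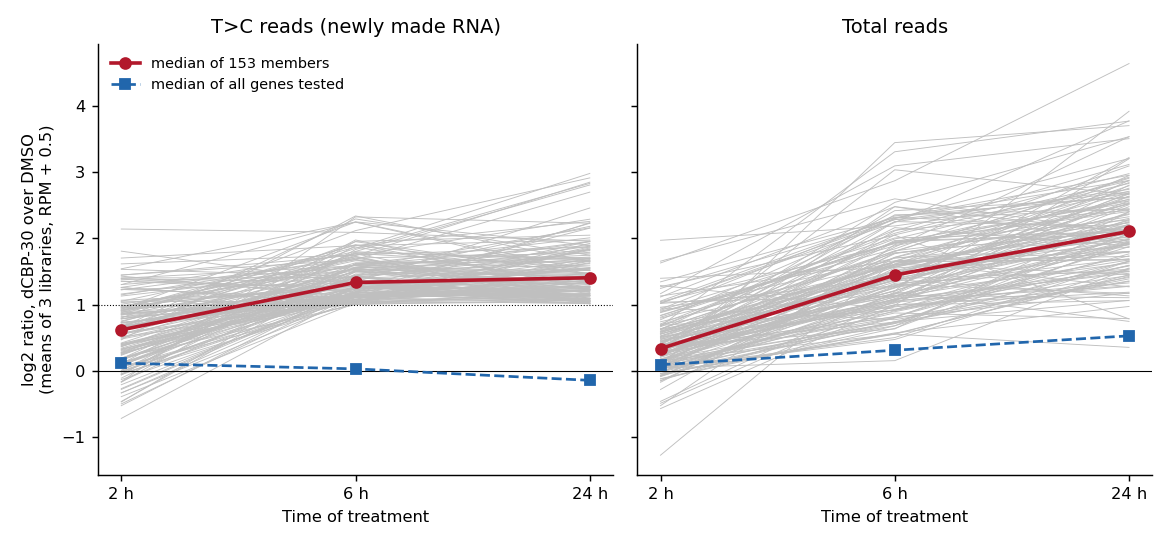
Log2 ratio of dCBP-30 over DMSO (means of 3 libraries, RPM + 0.5) at 2, 6 and 24 h for T>C reads on the left and total reads on the right, with 1 grey line per member, the members' median in red circles and the median of all genes tested in blue squares. The dotted line marks the limit of 1 that chose the members at 6 and 24 h; the T>C median goes from 0.62 to 1.34 and 1.41 and the total read median from 0.34 to 1.45 and 2.11.

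At 2 h the set already held genes with more new RNA. edgeR's quasi-likelihood test over all genes called 20 of the 153 members higher in T>C reads (13.1%, adjusted p under 0.05 and log2 fold change over 1), beside 1.66% of all genes tested, and 0 lower, beside 7.14%. At an unadjusted p under 0.05 the members on the lower side were 2, CCNG2 and PNRC1, and DESeq2 also called 0 lower. The median fitted log2 fold change was 0.71 over the members and 0.05 over all genes, and 125 members (81.7%) were above 0 where 52.8% of all genes were. All 153 members passed the filter on low counts, which the dCBP-30 libraries of 6 and 24 h can meet alone. With the 2 h libraries filtered and fitted by themselves, 8565 genes were tested, 128 of them members, and 16 members were called. The share called of these 8565 genes is not given here, and the 1.66% belongs to the fit of all 18 libraries. The 13.1%, the median of 0.71 and the 81.7% cover all 153 members, including those not among the 128. C1orf115, PEX11A and PNMA1 were not among the 128, so these 3 of the 20 calls exist only because the filter also counted the libraries that chose the members. Of the other 17, 14 were called in that fit, while MXD4, EIF5A2 and C8orf58 were tested and not called. Leaving out dCBP-30 replicate 1 of 2 h left 11 calls and leaving out its replicate 2 left 13. 7 genes were called with each of the 6 libraries of 2 h left out in turn: ATG2A, HEXIM1, SERTAD1, TTBK2 and ZNF708, and with them C1orf115 and PNMA1, which the 2 h libraries alone did not test.

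HEXIM1 (3′ UTR on chromosome 17, 45150268 to 45152099, plus strand, hg38) had 24.8, 24.6 and 19.4 RPM of T>C reads in the dCBP-30 libraries of 2 h and 7.45, 5.17 and 7.44 RPM in the DMSO libraries. The groups did not overlap, and the counts behind them were 1023 and 306 reads. Its T>C reads rose by a log2 fold change of 1.68 (SE 0.223, edgeR adjusted p = 2e-08), the firmest call in the set. Its dCBP-30 libraries of 6 h averaged 21.8 ± 0.919 RPM and those of 24 h 36.2 ± 3.92 RPM, and its DMSO means stayed between 5.49 and 7.18 RPM. SERTAD1, a coregulator of E2F-dependent transcription (3′ UTR on chromosome 19, 40421589 to 40422838, minus strand), had 6.67, 4.95 and 7.82 RPM against 1.36, 0.492 and 1.39 RPM at 2 h. It rose by 2.49 (SE 0.414, edgeR adjusted p = 4.4e-06) and held the highest 2 h ratio on the RPM scale, 2.14, with 2.09 at 6 h and 1.96 at 24 h. The list of elongation response genes had 14 tested members, of which HEXIM1 and SERTAD1 were called higher at 2 h and 2 others lower, beside 1.66% and 7.14% of all genes tested.

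The MAX partners MXD1 and MXD4 were both called in the fit of all 18 libraries, MXD4 just over the fold limit. MXD4 was not called with the 2 h libraries alone. Neither gene was among the 7 called with each 2 h library left out in turn. MXD1 (3′ UTR on chromosome 2, 69938282 to 69942945, plus strand) had 6.03, 6.22 and 8.30 RPM of T>C reads under dCBP-30 and 2.71, 2.58 and 3.05 RPM under DMSO at 2 h, a rise of 1.20 (SE 0.321, edgeR adjusted p = 0.0065). MXD4 (3′ UTR on chromosome 4, 2247432 to 2250546, minus strand) had 6.51, 7.74 and 4.98 RPM and 1.08, 3.94 and 3.78 RPM, a rise of 1.01 (SE 0.326, edgeR adjusted p = 0.031). For both genes every dCBP-30 library lay above every DMSO library at all 3 times. At 24 h MXD1 was at 11.2 ± 1.94 against 2.63 ± 0.433 RPM and MXD4 at 21.7 ± 5.90 against 7.83 ± 1.45 RPM.

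The E-box letters CACGTG, which read the same on both strands, are the site that MYC and MXD proteins share, and windows of 30 bases that hold them are printed here with the motif in capitals. Of 11 such windows in 9 member promoters, those shown belong to the 3 members among the 10 with the most new RNA at 24 h (MXD4, CREBRF and WBP2) and to CCNG2, chosen after its values were seen. The sequences are RefSeq promoters of GRCh38.p14, read 5′ to 3′ on the strand of the gene, and 127 of the 153 members matched an entry of 300 bases (250 before and 50 after the start of the gene). The windows lie at chr4:2262330-2262359 for MXD4 (minus strand), chr5:173056211-173056240 and chr5:173056326-173056355 for CREBRF (plus), chr4:77157165-77157194 for CCNG2 (plus) and chr17:75855428-75855457 for WBP2 (minus).
MXD4: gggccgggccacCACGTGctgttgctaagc
CREBRF, first window: cccctccggcgaCACGTGacaggggtgccc
CREBRF, second window: ctcgccgcggccCACGTGaggggggcgagt
CCNG2: tccgcggggagtCACGTGccccgccccctt
WBP2: gtaaactattacCACGTGacgttcgggtca
CACGTG was found in 9 of the 127 promoters (7.09%) and in 10.3% of the 8211 promoters of genes tested, and the longer TCACGTGA, which contains it, in 0.787% and 2.13%. Searched on both strands, CCAAT was in 39.4% of member promoters and 37.7% of all those tested, GGGCGG in 75.6% and 70.7%, CCGGAAGT in 8.66% and 9.94%, and GCATGCGC in 7.09% and 6.02%. TATAAA was in 6.30% and 5.13%, TGACGTCA in 3.94% and 3.35%, and TGACTCA in 3.94% and 2.90%. The median G and C content was 65.7% in the members and 65.3% in the genes tested. These shares are a description of letters in the window and name no factor bound there.

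**Figure D2:**
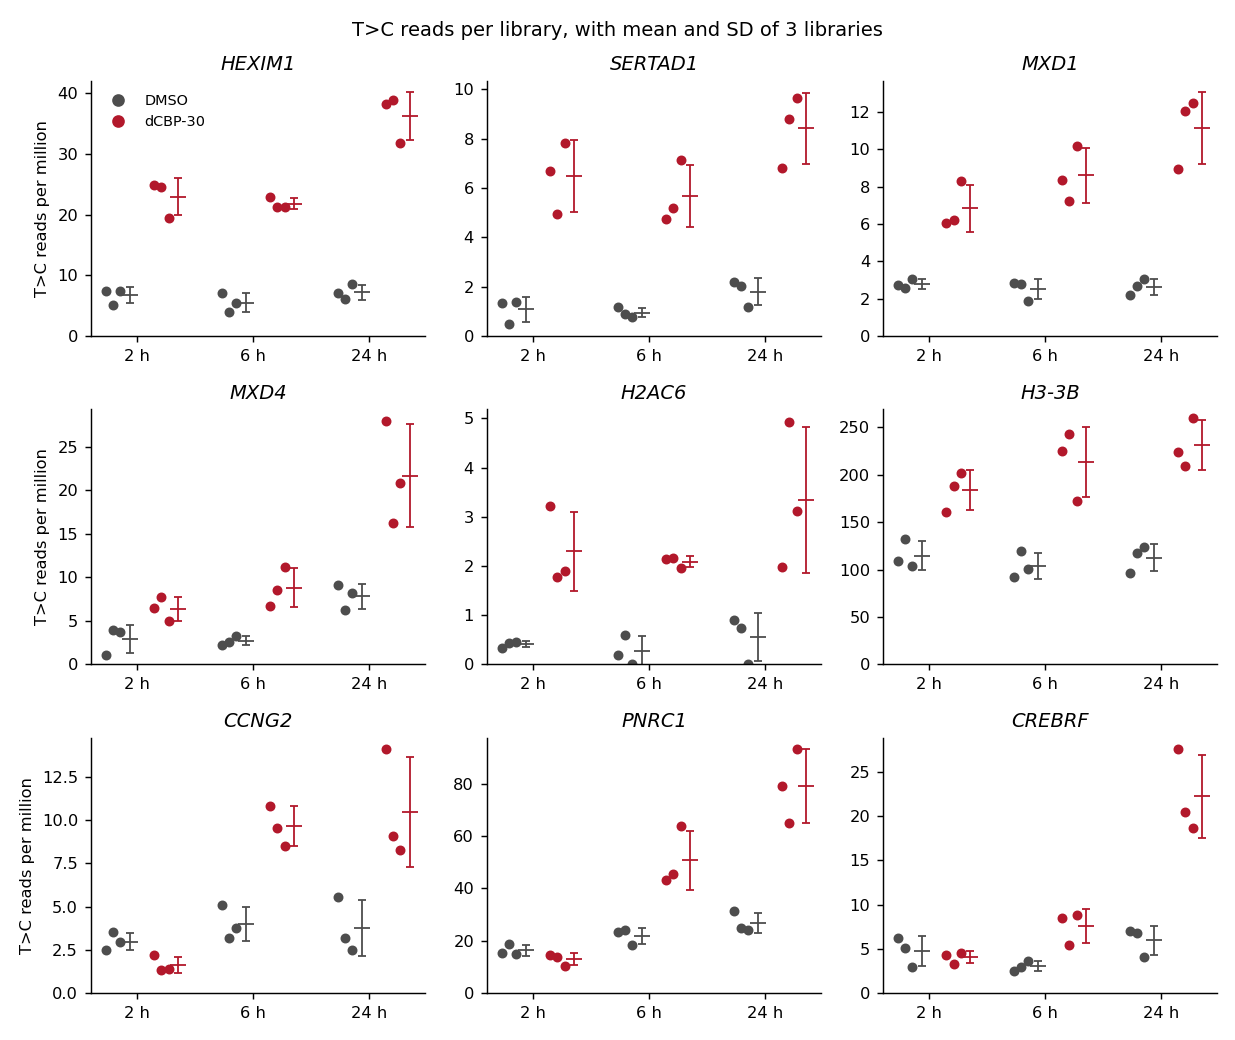
T>C RPM in each library at 2, 6 and 24 h under DMSO (grey) and dCBP-30 (red) for 9 members, with a dash and bar beside each group for the mean and SD of its 3 libraries and a linear axis from 0. HEXIM1, SERTAD1, MXD1, MXD4, H2AC6 and H3-3B are apart from DMSO at all 3 times, CCNG2 and PNRC1 lie below DMSO at 2 h and above it later, and CREBRF overlaps with DMSO at 2 h.

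Histone genes made up 2 members. H2AC6, a histone H2A gene (3′ UTR with introns on chromosome 6, 26124623 to 26139116, plus strand), had 3.22, 1.78 and 1.90 RPM of T>C reads under dCBP-30 and 0.339, 0.431 and 0.465 RPM under DMSO at 2 h, a rise of 2.35 (SE 0.769, edgeR adjusted p = 0.035). Its total reads were at 52.8 ± 8.11 RPM against 1.64 ± 0.644 RPM at 24 h, the highest total read log2 ratio of the set, 4.64. H3-3B had 161, 188 and 202 RPM of T>C reads against 109, 132 and 103 RPM at 2 h, with no overlap, and changed by 0.57 (SE 0.145, edgeR adjusted p = 0.0035), under the fold limit. H2A genes, the H3.3 genes, tubulin genes and RTL8C have near-identical copies, so their counts are uncertain. Of 12 tested genes on the list of polyadenylated histones, 2 were called higher at 2 h, beside 1.66% of all genes tested. These were H2AC6 and a gene that is not a member.

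C1orf115 and PNMA1 had no T>C read in any DMSO library of 2 h, and their values are a description, since they entered the test through the libraries of 6 and 24 h. C1orf115 had 1.45, 1.78 and 0.533 RPM under dCBP-30 from 55 reads, 18.7-fold above a floor of 3 reads over the DMSO group. PNMA1, a neuronal antigen with a role in apoptosis, had 0.804, 0.571 and 0.237 RPM from 23 reads, 7.84-fold above that floor. In both genes the fold leaves out the counting error of the dCBP-30 reads and is no lower bound. Counting error limits these and other low members: over the 3 DMSO libraries of 2 h a member had a median of 49 T>C reads, with a range of 0 to 5312.

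The remaining calls at 2 h fell on genes of several kinds. ATG2A, a lipid transfer protein of autophagosome growth, had 9.004, 7.81 and 5.63 RPM against 2.64, 1.66 and 2.46 RPM, a rise of 1.63 (SE 0.393, edgeR adjusted p = 0.0020). ZNF708, a KRAB zinc finger gene, had 5.14, 5.97 and 3.68 RPM against 1.97, 1.17 and 1.33 RPM, a rise of 1.62 (SE 0.393, edgeR adjusted p = 0.0021). TTBK2, the tau tubulin kinase needed to start cilia, had 2.73, 2.16 and 2.43 RPM against 0.610, 0.677 and 0.664 RPM, a rise of 1.79 (SE 0.467, edgeR adjusted p = 0.0048). In each of these genes the lowest dCBP-30 library stood above the highest DMSO library. PCYOX1, which breaks down prenylcysteine, was at 6.75, 2.48 and 4.62 RPM against 0.745, 2.22 and 1.53 RPM, a rise of 1.503 with a small gap between the groups (SE 0.386, edgeR adjusted p = 0.0040). RTL8C, a retrotransposon-derived gene, rose by 1.85 (edgeR adjusted p = 0.0034), and leaned on dCBP-30 replicate 2, which was at 6.98 RPM beside 2.57 and 1.66 RPM. The other calls were POFUT2, PRUNE1, TST and PEX11A among the enzymes, RAB2B and BBS2 of membrane and cilium traffic, EIF5A2, a homologue of the translation factor eIF5A, and C8orf58. Their log2 fold changes lay between 1.33 for TST and 2.34 for EIF5A2, leaving out PEX11A, which had 33 T>C reads over the dCBP-30 libraries, 22 of them in replicate 1, and 3 over the DMSO libraries.

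**Figure D3:**
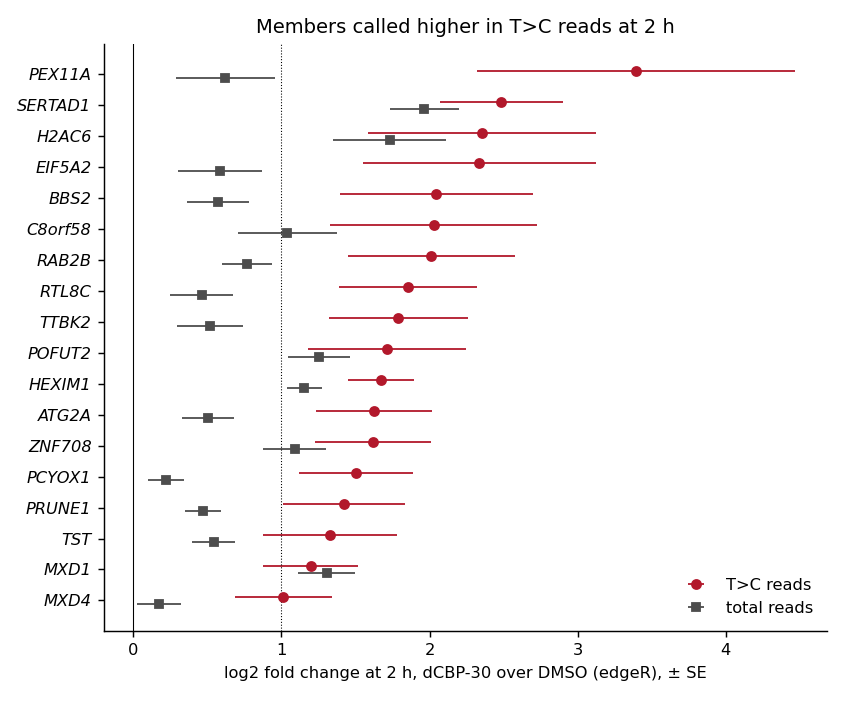
edgeR log2 fold change at 2 h, dCBP-30 over DMSO, with its SE as a bar, for the 18 members called higher in T>C reads that had a T>C read under DMSO, in T>C reads (red circles) and total reads (grey squares); the dotted line marks 1. The T>C value is above the total read value in every gene shown except MXD1, where it is 1.20 against 1.31.

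Total reads, which hold old and new RNA, gave fewer calls at 2 h. edgeR called 9 members higher (5.88%), beside 0.457% of all genes tested, and 1 lower, beside 1.25%, with a median log2 fold change of 0.25 over the members and -0.001 over all genes. HEXIM1, SERTAD1, MXD1, POFUT2, ZNF708 and H2AC6 were among them and were the 6 also called in T>C reads. HEXIM1 had 77.5, 85.0 and 74.3 RPM of total reads under dCBP-30 and 35.9, 32.6 and 30.4 RPM under DMSO, a rise of 1.15 (SE 0.120, edgeR adjusted p = 2.1e-07). SERTAD1 rose by 1.97 (SE 0.233, adjusted p = 1.9e-06 by edgeR) and MXD1 by 1.31 (SE 0.191, adjusted p = 5e-05 by edgeR). FRAT1, an inhibitor of GSK3, and RALGAPA2, a GTPase activating subunit for RAL, were called in total reads and not in T>C reads. The difference between the T>C and total read changes was not tested.

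SLC2A3, the glucose transporter GLUT3, was the member called lower in total reads at 2 h. It had 0.0804, 0.127 and 0.296 RPM under dCBP-30 and 0.881, 0.985 and 1.46 RPM under DMSO, a change of -2.71 (SE 0.649, edgeR adjusted p = 0.014). At 24 h the order was turned, with 8.45, 6.75 and 13.5 RPM against 1.03, 1.12 and 1.36 RPM. T>C reads at 2 h came to 0 in 2 of the 3 dCBP-30 libraries and in 2 of the 3 DMSO libraries, too few to compare. The call was lost when dCBP-30 replicate 1 or replicate 2 of 2 h was left out, and with the 2 h libraries fitted alone (0 calls in each).

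CCNG2 and PNRC1 had lower T>C reads under dCBP-30 in every library of 2 h, a difference that did not pass the test, and higher ones later. CCNG2, an unconventional cyclin linked to cell cycle arrest, had 2.17, 1.33 and 1.36 RPM of T>C reads under dCBP-30 and 2.51, 3.51 and 2.92 RPM under DMSO at 2 h (edgeR log2 fold change -0.995, SE 0.372, adjusted p = 0.076). At 6 h it had 10.8, 9.58 and 8.52 RPM against 5.09, 3.16 and 3.74 RPM. PNRC1 had 14.6, 13.8 and 10.3 RPM against 15.4, 18.8 and 14.8 RPM at 2 h (edgeR log2 fold change -0.45, SE 0.189, adjusted p = 0.13) and 43.2, 45.4 and 63.7 RPM against 23.3, 23.9 and 18.4 RPM at 6 h. These were the members with every dCBP-30 library below every DMSO library at 2 h, as were 12.5% of all genes tested. CREBRF, which limits CREB3, overlapped at 2 h with 4.26, 3.30 and 4.56 RPM against 6.23, 5.05 and 2.92 RPM, and was at 22.2 ± 4.72 against 5.94 ± 1.62 RPM at 24 h. CCNG2, PIK3IP1 (an inhibitor of PI3 kinase) and YPEL1 were the members among 24 tested genes on a list of FOXO and quiescence genes, of which 0 were called higher and 8 lower at 2 h (1.66% and 7.14% of all genes tested).

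Total reads of the members were also higher under dCBP-30 at 6 and 24 h. The members' median log2 ratio of total reads came to 0.34, 1.45 and 2.11 at 2, 6 and 24 h, beside 0.10, 0.32 and 0.53 over all genes tested. A ratio of 1 or more was seen in 17 members at 2 h, 119 at 6 h and 148 at 24 h, where 1.74%, 14.7% and 30.6% of all genes tested had one. At 24 h all 153 members had a ratio above 0, and in 152 every dCBP-30 library was above every DMSO library, as in 53.6% of all genes tested. The total read ratio was above the T>C ratio in 78 members at 6 h and in 137 at 24 h. At 24 h the conversions counted on members, divided by their T>C reads, gave a ratio between 1.473 and 1.552 under dCBP-30. Under DMSO this ratio lay between 2.704 and 2.747. T>C reads were 9.56% and 12.4% of member reads. The fall was not particular to the members. Over all genes the ratio of conversions to T>C reads lay between 1.426 and 1.512 under dCBP-30 and between 2.458 and 2.507 under DMSO. Without 4sU it was 0.928 and 0.918, below 1, so it is no exact number of conversions in a T>C read. T>C reads were between 5.915% and 6.865% and between 8.146% and 8.617% of all reads in these libraries. The part of the fall in this ratio in the T>C levels of 24 h was not tested.

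BEX3, a p75 neurotrophin receptor adaptor, and ETV5, an ETS factor, joined H2AC6 and PNMA1 at the top of the total read ratios of 24 h. BEX3 had 136, 159 and 138 RPM of total reads against 5.39, 11.1 and 10.7 RPM, a log2 ratio of 3.92, and ETV5 had 33.6, 35.8 and 26.4 RPM against 1.45, 1.07 and 3.11 RPM, a ratio of 3.77. At the other end were PPID, the cyclophilin 40 gene (0.36), RTN4IP1 (0.75), FOXD2 (0.79) and CNIH4 (0.79). PPID had 7.03, 5.22 and 4.58 RPM of T>C reads against 2.42, 2.56 and 2.33 RPM at 24 h, while its total reads were at 61.2, 52.5 and 67.4 RPM against 46.3, 53.9 and 40.8 RPM and overlapped.

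**Figure D4:**
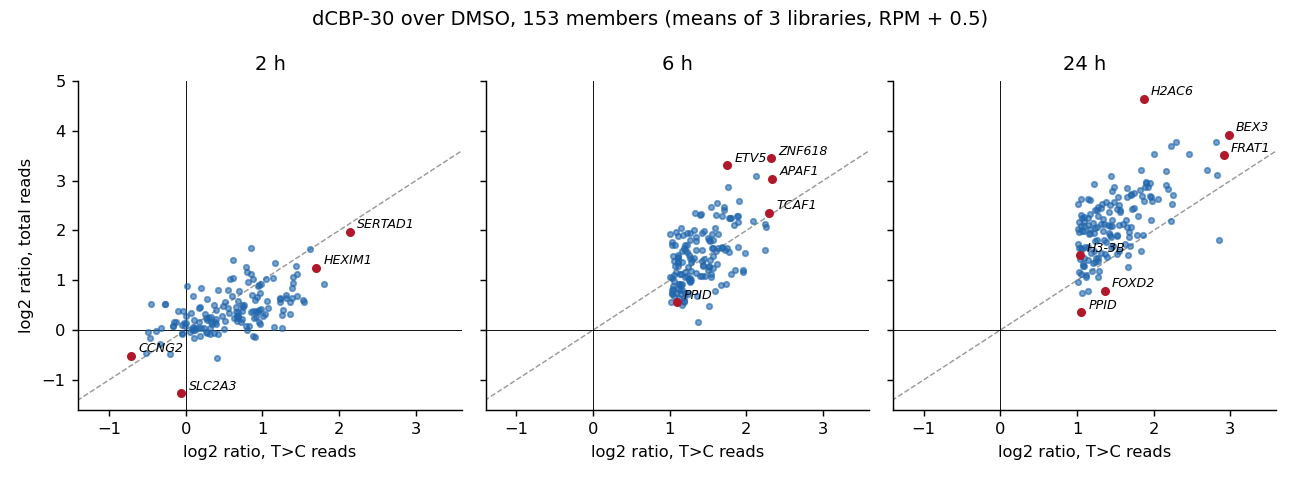
Log2 ratio of total reads (vertical) against T>C reads (horizontal), dCBP-30 over DMSO, for the 153 members at 2, 6 and 24 h (means of 3 libraries, RPM + 0.5), with equal values on the dashed line and some named genes in red. The total read ratio lies above the T>C ratio in 78 members at 6 h and in 137 at 24 h.

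By the rule's own ratios, the members farthest inside both limits were ZNF618, FRAT1, SERTAD1, TUBA1A, UNC119 and HEXIM1. ZNF618 had, in T>C reads of 6 h, 3.68, 3.34 and 1.75 RPM under dCBP-30 against 0.0644, 0 and 0.483 RPM, and 7.45, 3.77 and 3.82 RPM against 1.03, 0.481 and 0.518 RPM at 24 h. FRAT1 was at 8.98 ± 2.87 against 0.758 ± 0.210 RPM at 24 h. TUBA1A, a neuron-rich alpha tubulin, was at 8.35 ± 2.12 against 1.64 ± 0.377 RPM at 24 h and at 0.962 ± 0.627 against 1.02 ± 0.520 RPM at 2 h. ZNF618 and TUBA1A overlapped with DMSO at 2 h, where HEXIM1 and SERTAD1 did not. The ratio was higher at 24 than at 6 h in 86 members, most so in BEX3 (2.98 and 1.85), ZKSCAN4 (2.24 and 1.11) and SMIM14 (2.46 and 1.34). It was lower most in RTL8C (1.46 and 2.25), CHM (1.23 and 1.98) and DUSP18 (1.52 and 2.25).

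Sorted by what their products do, a sorting made from general knowledge once the members were known and carrying no test, the largest groups were 23 polymerase II, chromatin and transcription regulators, 22 kinases, phosphatases and GTPase regulators, 20 metabolic enzymes, 17 genes of autophagy, lysosome and membrane traffic, and 12 zinc finger genes. Calls at 2 h within each group stand beside 13.1% of all members and 1.66% of all genes tested. The 13.1% includes the 3 calls that the 2 h libraries alone did not test. Among the transcription regulators 4 were called higher in T>C reads at 2 h (HEXIM1, SERTAD1, MXD1 and MXD4), MXD4 not with the 2 h libraries alone. The median log2 ratio of these regulators was 0.76, 1.51 and 1.46 at 2, 6 and 24 h. The regulators also included the deacetylase HDAC8, the bZIP factor DDIT3, the mesenchymal factor TWIST1 and WWTR1, the YAP paralogue TAZ. None of these 4 passed the 2 h test, with log2 fold changes between -0.11 for DDIT3 and 2.18 for TWIST1 (edgeR adjusted p = 0.94 and 0.17). DDIT3 was the only member among 21 tested ATF4 and unfolded protein response genes, of which 2 were called higher and 6 lower at 2 h. TWIST1 was the only member among 48 tested factors of other lineages, with 0 higher and 14 lower. Of all genes tested, 1.66% were called higher and 7.14% lower.

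The autophagy and traffic genes had the median ratios 0.37, 1.26 and 1.37, with ATG2A and RAB2B called at 2 h. MAP1LC3B, the LC3B protein of autophagosomes, had 10.2, 11.7 and 14.0 RPM of T>C reads against 4.36, 5.18 and 3.37 RPM at 24 h, and at 2 h a log2 fold change of 0.52 (SE 0.325, edgeR adjusted p = 0.37). NBR1, a cargo receptor, RB1CC1, a subunit of the ULK1 complex, BNIP3L, a mitophagy receptor, and the ESCRT-III genes CHMP2B and CHMP4C were in the set as well. MAP1LC3B alone of 39 tested genes on the list of lysosome and autophagy genes was a member (2.56%), beside 1.52% of all genes tested.

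Among the signalling genes, with medians 0.68, 1.54 and 1.35, several encode restraints on RAS, RAL, PI3 kinase or the cell cycle (NF1, RALGAPA2, PIK3IP1 and CCNG2), a choice of names made after their values were seen. NF1 was at 7.02 ± 1.72 against 1.19 ± 0.644 RPM of T>C reads at 24 h and at 1.06 ± 0.949 against 0.669 ± 0.748 RPM at 2 h, where the groups overlapped. The metabolic enzymes, with medians 0.70, 1.27 and 1.31, had 5 calls among 20 members at 2 h, beside 13.1% of all members. They were PCYOX1, POFUT2, PRUNE1, TST and PEX11A, the last of them not tested by the 2 h libraries alone. CAT, the catalase gene, had 3.46, 2.41 and 1.84 RPM against 1.56, 0.923 and 0.930 RPM at 2 h, apart but not called (log2 fold change 1.06, SE 0.539, edgeR adjusted p = 0.24).

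The zinc finger genes had the median ratios 0.56, 1.11 and 1.29, and 11 members had a symbol starting with ZNF, ZSCAN or ZKSCAN, which is 3.17% of the 347 such genes tested, where 1.52% of all genes tested were members. Ubiquitin ligases and deubiquitinases (9 members) had 0 calls at 2 h and medians 0.60, 1.24 and 1.26. The Argonaute genes AGO3 and AGO4 were both members, and differed in their course. AGO3 overlapped with DMSO at 2 h and was apart at 6 and 24 h, with ratios of 0.65, 1.19 and 1.07, and AGO4 had ratios of -0.17, 1.83 and 2.83, reaching 6.88, 9.07 and 5.21 RPM against 0.666, 0.694 and 0.324 RPM at 24 h. TUBA1A and TUBB2A were the members among 18 tested tubulin and microtubule genes. APAF1, the apoptosome scaffold, had the largest ratio at 6 h, 2.34, from 1.54, 2.47 and 3.004 RPM against 0, 0.0607 and 0.121 RPM. It was the only member among 30 tested apoptosis regulators, of which 2 were called higher and 11 lower at 2 h. IFI6, an interferon induced gene, had 3.34, 3.56 and 3.68 RPM against 0.182, 0.534 and 0.906 RPM at 24 h. It was the only member among 16 tested interferon and antigen presentation genes, with 0 called higher and 5 lower at 2 h. Of all genes tested, 1.66% were called higher and 7.14% lower. The lists of p53 targets (24 tested), sterol and fatty acid synthesis (24), plasma cell genes (18) and mature B cell genes (14) held 0 members, and at 1.52% of the genes tested lists of this size need hold none.

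Properties that the rule did not use directly are given as medians and counts, with no test. The rule sets limits on T>C reads, so it can shape the read level, T>C share and T positions of members. How far it did was not tested. Under DMSO at 2 h the median member had 8.75 RPM of total reads and the median gene tested 26.5 RPM. Among genes with at least 50 reads there, T>C reads were a median of 10.6% of the reads of 149 members and 9.11% of the reads of all 9856 genes. Members had a median of 27.3 covered T positions per read, where all genes tested had 24.9, and the part of the T positions in the T>C share was not tested. The median 3′ UTR transcript was 1995 bases in the members and 1740 bases in all genes tested. Chromosome X held 9 members (5.88%, with 3.39% of the genes tested), and chromosome 19, home of many KRAB zinc finger genes, held 8 (5.23%, with 6.80%).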

How the data were processed

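SLAM-seq libraries were made with a 3′ mRNA kit from 4sU-labelled MM1.S cells. The authors trimmed the reads with Trim Galore, mapped and counted them with Slamdunk on 3′ UTRs of hg38, removed multimapping reads and deposited, for every transcript, raw counts (all reads, T>C reads, conversions, and T positions read). An RNA spike-in, named in the methods, was not used here. The submitters' processing notes also name DESeq.

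From these counts, 89088 of 97466 transcript rows (91.4%) matched GENCODE. Many transcripts share a 3′ UTR and thus its reads, so each gene took its transcript with the most reads. Within each group the libraries differed beyond sampling noise. T>C and total reads of the 18 labelled libraries were fitted with edgeR 4.0.16 (R 4.3.3), 1 mean per group, total read library sizes with TMM factors and filterByExpr (minimum count 10), with Benjamini-Hochberg adjustment over 10083 genes for T>C reads and 12267 for total reads. Calls needed less than 0.05 as adjusted p and more than 1 as log2 fold change, in size. DESeq2 1.42.0 was an alternative, as were other scalings, filters, transcript sums, background subtraction and leaving out libraries. The fit was tested on simulated data. The floor of 3 reads covers counting error of the DMSO reads only, and reads carry no molecular identifiers used here.

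The members and the gene lists were chosen with earlier results of these data known. Genes named are the 10 highest at 24 h, the 6 largest by the rule, the members called at 2 h, those on the lists, those next to the limits, and the extremes of total reads and of the change from 6 to 24 h, with others added after their values were seen. Some results are not reported here.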

Additional observations from a re-analysis of the deposited data

Results flagged for a closer look

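In T>C reads of CCNG2 and PNRC1, every dCBP-30 library was below every DMSO library at 2 h, and every one was above at 6 and 24 h. The log2 ratios at 2 h were -0.713 and -0.33 on the RPM scale, and neither gene passed the 2 h test. Only these 2 of the 153 members lay wholly below DMSO at 2 h, where 12.5% of all genes tested did. The difference between the times was not tested, and the 6 and 24 h values are those that chose the genes.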

How the results depend on the processing

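The number of members called higher in T>C reads at 2 h was 20 in the main fit. It was 13 when genes had to average 20 or more T>C reads, 12 with the background without 4sU subtracted and 13 with reads summed over transcripts. With a library left out it lay between 11 and 19, the lowest without dCBP-30 replicate 1 (11) and replicate 2 (13). The called genes also changed: with a library left out, between 11 and 14 of the main 20 were kept and up to 5 other members were newly called. The cause was not tested, apart from the smaller number of genes tested. All 20 were also called by DESeq2 and with a replicate block, which also gave 20 calls in T>C reads and 10 in total reads; same-numbered libraries had correlations between -0.305 and 0.101, so the numbers do not pair them. No alternative called a member lower in T>C reads. The median T>C log2 fold change of 0.713 was 0.814 without TMM factors and between 0.625 and 0.77 with a library left out. In total reads the 9 higher calls became 16 without TMM factors. With a library left out there were between 8 and 13 calls, which kept 7 or 8 of the 9. The lower call (SLC2A3) became 0 with the 2 h libraries alone and lay between 0 and 1 with a library left out. The median of 0.252 was 0.356 without TMM factors and between 0.194 and 0.292 with a library left out. The number of members depended on the scale: 256 with a pseudocount of 0.1 and 83 with 1 RPM, 42 with TMM factors, 452 when scaled by each library's T>C reads (152 shared), 93 with summed transcripts (61 shared), 87 with a floor of 3 RPM, and between 142 and 170 without a library of 6 or 24 h (122 to 140 shared). With the background without 4sU subtracted, the number of members was 133 (128 shared). Summing repeats reads in the total of a library, which lowers the RPM of genes with 1 transcript.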
